A study of Rattus norvegicus with 12 samples.

Results

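The Kruppel-like factor genes described here are the 10 named Klf2, Klf4, Klf6, Klf7, Klf9, Klf10, Klf12, Klf13, Klf15 and Klf16, taken by symbol from the 17310 genes of the deposited tables. All 10 reached 0.5 CPM (fragments scaled to the library total) in at least 1 library, so none was left out as not measured, and all 10 were among the 12856 genes tested. They were measured in messenger RNA from the part of the hypothalamus that holds the paraventricular nucleus (PVH), the seat of the neurons that start the hormonal stress response. The animals were wild-type male Wistar rats of 12 postnatal weeks. There were 6 groups of 2 libraries. Sham rats had a sham adrenalectomy (sham). High Cort rats had 12 days of high corticosterone (high Cort), the main glucocorticoid of the rat. Their sample title named no surgery, adrenal state or vehicle, so differences from sham in these cannot be told apart from corticosterone. ADX rats were taken 7 days after adrenalectomy, which removes the source of corticosterone (ADX). Supplemented ADX rats were adrenalectomised and given corticosterone (supplemented ADX). The last groups were taken 1 h and 3 h after acute corticosterone (1 h acute, 3 h acute). The labels gave no dose or route, no vehicle group for the acute treatment and no length of supplementation, did not say whether the acute rats kept their adrenals, and did not say whether a library was 1 animal or a pool, so the tests reflect the spread of these libraries alone, which may be technical.

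Kruppel-like factors are transcription factors that bind GC-rich and CACCC sequences through zinc fingers at their carboxyl end. They differ in the partners recruited by the rest of the protein. Klf9, Klf10, Klf13 and Klf16 recruit the Sin3a corepressor, Klf12 recruits the Ctbp corepressors, and Klf2, Klf4, Klf6 and Klf7 can recruit acetyltransferases that activate transcription. Klf9 and Klf15 are known as direct targets of the glucocorticoid receptor in many tissues. Klf2, Klf4, Klf6 and Klf10 are known to respond within an hour to growth factors, shear stress or neuronal activity.

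The promoters of the pair of genes that rose together in high Cort are shown first, as background to that result. RefSeq promoter windows of build GRCr8, which run from 250 bases before to 50 bases after the start of the gene, matched 6 of the 10 members by symbol. These were Klf4, Klf6, Klf7, Klf9, Klf12 and Klf15. Both printed windows read 5′ to 3′ on the strand of the gene. The Klf9 window is chr1:230126396-230126695 (plus strand) and the Klf15 window is chr4:124522765-124523064 (plus strand). Capitals mark TGACGT (the core of the cyclic AMP response element), CACGTG (the E-box) and CCAAT (the CCAAT box), each searched on both strands.
Klf9: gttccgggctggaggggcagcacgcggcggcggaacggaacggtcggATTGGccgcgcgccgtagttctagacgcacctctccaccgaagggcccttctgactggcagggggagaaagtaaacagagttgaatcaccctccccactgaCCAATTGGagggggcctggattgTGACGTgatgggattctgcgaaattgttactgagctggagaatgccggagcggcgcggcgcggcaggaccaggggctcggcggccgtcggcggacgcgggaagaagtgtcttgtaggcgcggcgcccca
Klf15: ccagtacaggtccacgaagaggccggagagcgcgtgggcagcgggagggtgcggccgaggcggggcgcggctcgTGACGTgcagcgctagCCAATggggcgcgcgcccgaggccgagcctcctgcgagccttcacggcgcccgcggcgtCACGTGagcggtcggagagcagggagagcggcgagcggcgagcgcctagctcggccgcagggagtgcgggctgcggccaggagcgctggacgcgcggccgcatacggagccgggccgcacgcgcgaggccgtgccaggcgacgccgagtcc

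Each of these windows held TGACGT once, which 7.94% of 33469 promoter windows of the same length held, and neither Klf4, Klf6, Klf7 nor Klf12 did. CCAAT was found 3 times in the Klf9 window, where 2 of the matches overlap on opposite strands, 1 time in the Klf15 window and 4 times in the Klf6 window, against 37.5% of all windows with at least 1. The E-box was found in the Klf15 and Klf6 windows, against 6.42% of all. The CACCC motif, which Kruppel-like factors themselves bind, was found in the Klf7, Klf9 and Klf15 windows, against 54.9%. The full glucocorticoid receptor element (AGAACA and TGTTCT with NNN between them) was in 5 of all windows (0.0149%) and in no member's window, and its AGAACA side (20.7% of windows) was in none of the 6. The GC box (GGGCGG, 33.1% of windows) was in the Klf6 and Klf7 windows, and the letters of the TATA box (TATAAA, 14.2%) in that of Klf4. Both Klf4 matches read on the strand opposite to the gene, at -146 and -78 from its start. Klf9 and Klf15 were chosen for display by their calls, and these matches describe letters only. GC content was 65.3% in the Klf9 window and 77.3% in the Klf15 window, against 45% for Klf4 and 41.3% for Klf12.

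The libraries held 17674159 to 36249006 fragments. Levels below are CPM after TMM scaling, a step that equalises library composition, and are given for replicate 1 and then replicate 2. A gene was called changed at an adjusted p under 0.05 in edgeR's quasi-likelihood test fitted to all 12 libraries. Changes are log2 fold changes ± SE. Markers of the thalamus, the region beside the dissected one, differed between libraries. Over 12 tested markers the mean log2 CPM of the sham libraries was 6.09 and 6.67 and that of the high Cort libraries 6.52 and 6.49. ADX had 5.87 and 6.03, and the supplemented ADX libraries had 5.97 and 5.93. The lowest means were those of the 1 h (5.63 and 4.87) and 3 h (5.44 and 5.56) acute libraries. All 10 listed PVH markers were above 0 in every library, and their summed level ran from 509.2 CPM in high Cort to 1119.4 CPM in 3 h acute. In bulk tissue, fewer cells of a type and less RNA per cell cannot be told apart.

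Per unit of transcript length, on the authors' FPKM scale in the sham libraries, Klf9 had the highest level of the 10 at 34.4 ± 0.74 FPKM (mean ± SD, n = 2). Klf6 stood at 21.5 ± 1.61, Klf7 at 18.3 ± 0.66 and Klf12 at 16.1 ± 1.17 FPKM. Klf13 came next at 12.6 ± 2.19 FPKM. Klf16 (10.6 ± 0.48), Klf15 (8.94 ± 0.17), Klf4 (3.38 ± 0.03), Klf10 (3.34 ± 0.24) and Klf2 (1.87 ± 0.32 FPKM) followed. The 2 libraries of Klf4 (3.40 and 3.35) lay between those of Klf10 (3.51 and 3.16), so these did not differ beyond their spread. No other neighbours in this order had overlapping libraries. The gene model behind the FPKM of Klf13 was short: the ratio of CPM to FPKM implied 0.38 kb, against 0.85 kb for Klf2 and 2.19 to 4.07 kb for the other 8 members. Its counts were correspondingly few, between 78 and 171 fragments per library, and those of Klf2 lay between 36 and 94. The remaining members had at least 138 fragments in every library.

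**Figure D1:**
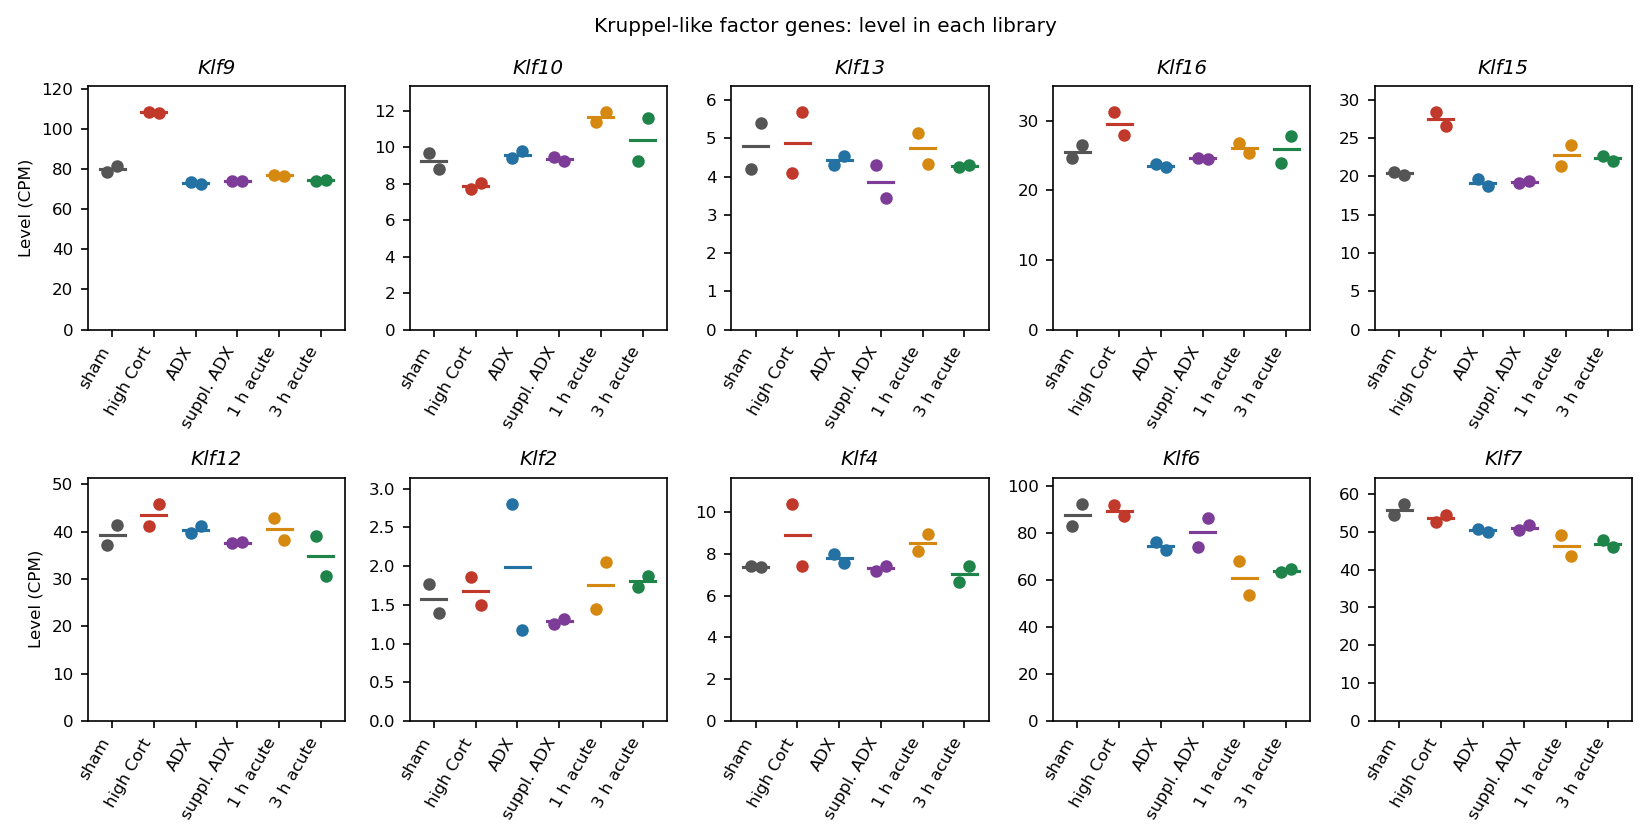
Level of each of the 10 genes (vertical axis, CPM, from 0) in each library (points) of the 6 groups (horizontal axis), with a bar at the mean of 2 libraries. Both high Cort points of Klf9 (109 and 108 CPM) and of Klf15 (28.4 and 26.5 CPM) lie above all other points of their panel, and the acute points of Klf6 lie below those of all other groups.

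Klf9, a repressor of the Sin3a class, stood higher in high Cort than in every other group. Its level was 109 and 108 CPM in high Cort and 78.8 and 81.6 CPM in sham. It was 73.9 and 72.6 CPM in ADX and 74.0 and 74.3 CPM in supplemented ADX. The acute libraries stood at 77.3 and 76.7 CPM at 1 h and 74.0 and 74.9 CPM at 3 h. The 10 libraries outside high Cort thus lay between 72.6 and 81.6 CPM, and the groups fell in the order high Cort, sham, 1 h acute, 3 h acute, supplemented ADX, ADX. In that order only 3 h acute and supplemented ADX overlapped. In high Cort against sham, Klf9 rose 1.35-fold (0.44 ± 0.04, 95% interval 0.345 to 0.525, adjusted p = 9.21e-05) and had the 5th smallest p of all genes tested. Against ADX it rose 1.48-fold (0.57 ± 0.04, adjusted p = 3.14e-06), the 4th smallest p. It kept both calls in 13 of 13 alternative analyses, with log2 values between 0.40 and 0.46 against sham.

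At the other end of exposure the differences in Klf9 were small. ADX libraries were both below sham (-0.13 ± 0.04, adjusted p = 0.22), as were those of supplemented ADX (-0.11 ± 0.04, adjusted p = 0.39), and neither passed the test. Supplemented ADX stood within 0.02 ± 0.04 of ADX on the log2 scale (95% interval -0.07 to 0.11). The acute groups gave Klf9 a log2 difference from supplemented ADX of 0.05 ± 0.04 at 1 h (95% interval -0.04 to 0.15) and 0.01 ± 0.04 at 3 h (95% interval -0.09 to 0.10). These upper bounds lie below the log2 change in high Cort, 0.44. A direct test of the difference, added after these values were seen, set the acute effect (against supplemented ADX) beside the high Cort effect (against sham). The acute effect on Klf9 was smaller by -0.38 ± 0.06 on the log2 scale at 1 h (adjusted p = 0.021) and by -0.43 ± 0.06 at 3 h (adjusted p = 0.0118). This test called 0.156% of all genes at 1 h and 0.163% at 3 h, and Klf9 was the only member called in either. At 1 h the call was lost in 7 of 15 alternatives: with the thalamus marker mean as covariate, in the fit of the compared samples, and on omission of sham replicate 1, high Cort replicate 1, either supplemented ADX replicate or 1 h acute replicate 2. At 3 h it was lost in 3 of 15, those without high Cort replicate 1 or either supplemented ADX replicate.

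Klf15, a regulator of amino acid, glucose and lipid metabolism, followed Klf9 in high Cort. It stood at 28.4 and 26.5 CPM there, against 20.6 and 20.2 CPM in sham. ADX (19.6 and 18.7 CPM) and supplemented ADX (19.1 and 19.4 CPM) were the lowest groups and overlapped each other. High Cort exceeded sham 1.35-fold (0.43 ± 0.07, adjusted p = 0.00968) and ADX 1.43-fold (0.52 ± 0.07, adjusted p = 0.000707). The rise against ADX was called in 13 of 13 alternatives, but the rise against sham in 7 of 13. Its adjusted p was 0.0542 when sham replicate 1 was left out, 0.0984 when sham replicate 2 was, and 0.172 when high Cort replicate 1 was. In the high Cort libraries, where Klf9 and Klf15 were highest, the mean of the 10 PVH markers was lowest, at 5.04 and 5.05 log2 CPM against 5.41 to 6.13 in the others. Among these markers Crh was called lower in high Cort than in sham (-1.85 ± 0.265), and 1 of the 10 had a positive difference. The mean therefore cannot separate an effect of treatment on the marker genes from the tissue taken. The part of this mean in the Klf9 and Klf15 results was not tested.

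The acute libraries of Klf15 overlapped neither those of sham nor those of supplemented ADX. They held 21.4 and 24.1 CPM at 1 h and 22.7 and 21.9 CPM at 3 h, above all sham and ADX libraries. Against supplemented ADX the log2 difference was 0.23 ± 0.07 at 1 h (adjusted p = 0.20) and 0.21 ± 0.07 at 3 h (adjusted p = 0.27), and neither was called. Without 1 h acute replicate 1 the 1 h value was 0.32 (adjusted p = 0.0491). With the thalamus marker mean as covariate the values were 0.12 at 1 h (adjusted p = 0.991) and 0.14 at 3 h (adjusted p = 0.707). Against sham Klf15 had 0.15 ± 0.08 at 1 h (adjusted p = 0.227) and 0.13 ± 0.08 at 3 h (adjusted p = 0.312), and these turned to -0.04 and -0.02 with that covariate. The marker means of the acute libraries (4.87 to 5.63) overlapped those of neither baseline, so the covariate fit could not separate marker mean from group. The acute effect on Klf15 was not called different from the high Cort effect, with log2 differences of -0.20 ± 0.10 at 1 h (adjusted p = 0.53) and -0.21 ± 0.10 at 3 h (adjusted p = 0.49).

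Klf16, another Sin3a-class repressor, had its highest mean in high Cort and its lowest in ADX. Its libraries held 31.3 and 28.0 CPM in high Cort, 24.7 and 26.5 CPM in sham and 23.8 and 23.4 CPM in ADX. High Cort exceeded ADX 1.25-fold (0.33 ± 0.08, adjusted p = 0.024), while the difference from sham was 0.21 ± 0.08 (adjusted p = 0.42). The call against ADX was lost without high Cort replicate 1 (adjusted p = 0.258), without ADX replicate 1 (0.143) or replicate 2 (0.162), and with the thalamus score in the fit (0.24, adjusted p = 0.291). It was also lost in limma on FPKM, with an adjusted p of 0.071 or 0.0701 by pseudocount. The thalamus score did not overlap between high Cort (6.52 and 6.49) and ADX (5.87 and 6.03), so its fit could not separate score from group. Supplemented ADX (24.7 and 24.5 CPM), 1 h acute (26.8 and 25.3 CPM) and 3 h acute (24.0 and 27.9 CPM) lay within the span of the other groups.

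Klf10, which was first known as a gene induced early by transforming growth factor beta, ran the other way. Its lowest libraries were those of high Cort, at 7.69 and 8.02 CPM, against 9.69 and 8.78 CPM in sham and 9.38 and 9.77 CPM in ADX. Its highest group was 1 h acute at 11.4 and 11.9 CPM, while supplemented ADX held 9.47 and 9.26 CPM and 3 h acute 9.25 and 11.6 CPM. No comparison called Klf10. Its log2 difference in high Cort was -0.23 ± 0.11 against sham (adjusted p = 0.624) and -0.28 ± 0.11 against ADX (adjusted p = 0.145). In 1 h acute it was 0.33 ± 0.11 against sham (adjusted p = 0.0566) and 0.31 ± 0.10 against supplemented ADX (adjusted p = 0.21). With a stricter filter on low counts the difference of 1 h acute from sham was called (adjusted p = 0.0492).

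Klf13, the remaining Sin3a-class member, and Klf12, a repressor that works through Ctbp proteins, were called in none of the 10 comparisons. Klf13 ran from 3.44 CPM in supplemented ADX replicate 2 to 5.69 CPM in high Cort replicate 2, and each pair of neighbouring groups overlapped. Its replicates differed 1.22-fold in the median group, close to the 1.26-fold span of its group means. Klf12 ran from 30.6 CPM in 3 h acute replicate 2 to 45.9 CPM in high Cort replicate 2 and its neighbouring groups overlapped throughout. The smallest unadjusted p of Klf12 was 0.0432, for 3 h acute against 1 h acute (-0.23 ± 0.10, adjusted p = 0.45).

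Klf2 and Klf4, activators best known from endothelial cells, where blood flow induces them, had no call either. Klf2 was the least abundant member by counts, with 1.18 CPM in ADX replicate 2 and 2.81 CPM in ADX replicate 1, which were its lowest and highest libraries. Both extremes thus came from 1 group, and the SE of each Klf2 difference was at least 0.327 on the log2 scale. Klf4 stood at 7.41 and 7.35 CPM in sham, 10.4 and 7.42 CPM in high Cort and 7.97 and 7.57 CPM in ADX. It held 7.19 and 7.42 CPM in supplemented ADX, 8.12 and 8.93 CPM in 1 h acute and 6.65 and 7.43 CPM in 3 h acute. The 1 h acute libraries of Klf4 were above those of both baselines, by 0.20 ± 0.14 against sham (adjusted p = 0.39) and 0.21 ± 0.14 against supplemented ADX (adjusted p = 0.49). The summed level of 16 endothelial markers was 771.3 and 772.4 CPM in high Cort and 812.7 to 858.8 CPM in the other libraries, and its part in the Klf2 and Klf4 values was not tested.

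Klf6, an activator that responds to injury and takes part in axon growth, and Klf7, a close relative known for its role in neuronal outgrowth, were lower in both acute groups than in sham. Klf6 stood at 82.8 and 92.5 CPM in sham and 91.7 and 87.0 CPM in high Cort. It held 76.0 and 72.8 CPM in ADX, 74.1 and 86.4 CPM in supplemented ADX, 68.2 and 53.4 CPM in 1 h acute and 63.4 and 64.5 CPM in 3 h acute. All 4 acute libraries were below the other 8. Klf6 fell 1.43-fold in 1 h acute against sham (-0.51 ± 0.11, adjusted p = 0.0195) and 1.37-fold in 3 h acute against sham (-0.45 ± 0.11, adjusted p = 0.0396). Against supplemented ADX it had -0.38 ± 0.11 (adjusted p = 0.195) and -0.33 ± 0.11 (adjusted p = 0.30), with no call.

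Klf7 was likewise lowest in the acute groups, with smaller differences, and was highest in sham rather than high Cort. Its libraries held 54.3 and 57.4 CPM in sham, 52.6 and 54.4 CPM in high Cort, 50.8 and 49.9 CPM in ADX and 50.4 and 51.7 CPM in supplemented ADX. The acute ones held 49.0 and 43.6 CPM at 1 h and 47.8 and 46.0 CPM at 3 h, again below the other 8. It fell 1.20-fold against sham at 1 h (-0.26 ± 0.06, adjusted p = 0.0138) and 1.19-fold at 3 h (-0.25 ± 0.06, adjusted p = 0.0236).

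The thalamus markers moved with both genes. The library with the highest Klf6 and Klf7, sham replicate 2, had the highest marker mean (6.67), and 1 h acute replicate 2, with the lowest Klf6 and Klf7, had the lowest (4.87). With the marker mean as a covariate, Klf6 had -0.13 in 1 h acute against sham (adjusted p = 0.996) and -0.14 at 3 h (adjusted p = 0.851), and Klf7 had -0.08 (adjusted p = 0.996) and -0.11 (adjusted p = 0.855), so that no member was called. In the same fit Klf9 had 0.43 and Klf15 0.45 in high Cort against sham (adjusted p = 4.71e-05 and 0.00279). The sham marker means (6.09 and 6.67) spanned those of high Cort (6.52 and 6.49) but not those of the acute libraries (4.87 to 5.63). In the acute comparisons the fit therefore could not separate marker mean from group, so its outcomes there and in high Cort against sham cannot be compared. The same limit holds for high Cort against ADX, where the ADX means (5.87 and 6.03) lay below both high Cort means. It applies there to calls kept with the covariate as well as to calls lost. Without sham replicate 2 the adjusted p of Klf6 was 0.141 at 1 h and 0.242 at 3 h, and that of Klf7 was 0.142 and 0.211. Without 1 h acute replicate 2 it was 0.0552 for Klf6 and 0.158 for Klf7. At 3 h both genes also lost the call without either 3 h acute replicate, with adjusted p from 0.062 to 0.198. In the fit of the compared samples alone the 1 h adjusted p was 0.13 for Klf6 and 0.115 for Klf7. These comparisons also crossed the authors' 2 processing runs, which cannot be told apart from the groups.

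**Figure D2:**
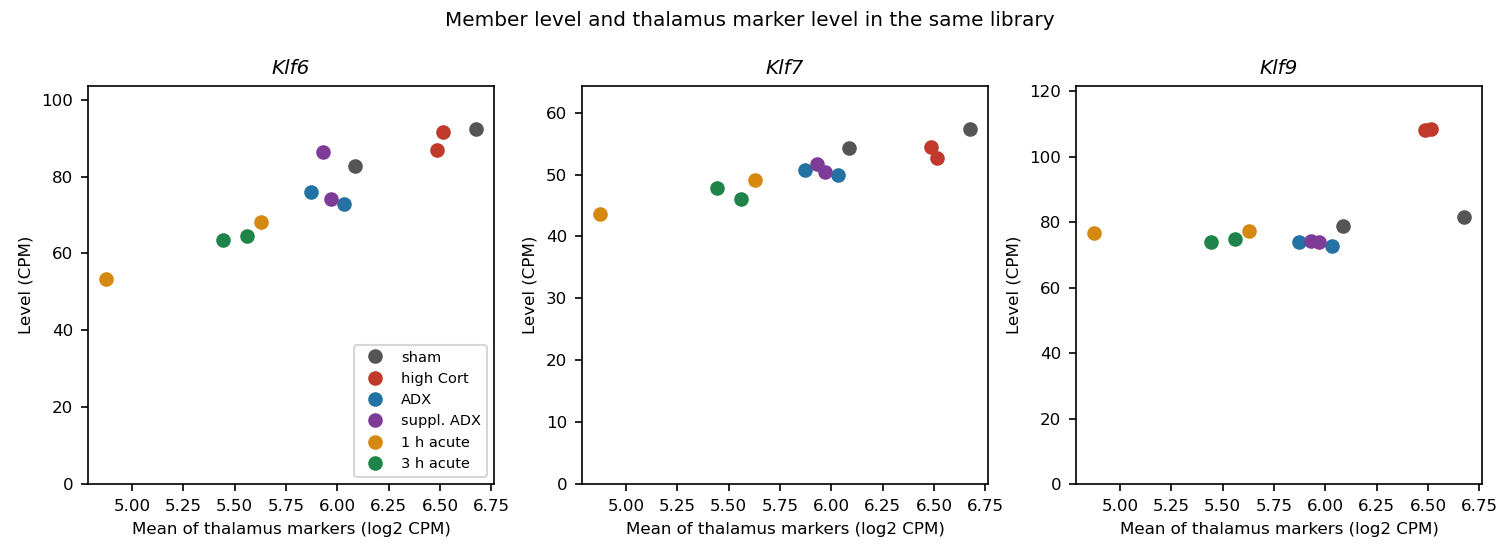
Level of Klf6, Klf7 and Klf9 (vertical axes, CPM, from 0) against the mean of 12 thalamus markers (horizontal axes, log2 CPM) in each of the 12 libraries, coloured by group. The lowest Klf6 point (53.4 CPM) is the library with the lowest marker mean (4.87), while the 2 high Cort points of Klf9 stand above the sham point with a higher marker mean (6.67).

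Counted together, 2 of the 10 members were called in high Cort against sham, both higher. Of all genes tested, 0.871% were called there, 0.513% higher and 0.358% lower. The median log2 fold change of the 10 was 0.12, against 0.01 for all genes. In high Cort against ADX 3 members were called, all higher (Klf9, Klf15 and Klf16), and their median was 0.17. That comparison called 5.77% of all genes, 3.50% higher and 2.27% lower. In 1 h acute against sham 2 members were called, both lower, where 12.8% of all genes were called (5.56% higher, 7.20% lower). In 3 h acute against sham the same 2 were called, where 7.98% of all genes were (3.41% higher, 4.57% lower). The same sham libraries serve both comparisons.

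In the other comparisons edgeR called 0 members. In ADX against sham 2 had an unadjusted p under 0.05, and 0.233% of all genes were called (0.132% higher, 0.101% lower), while DESeq2 and limma also called 0 members. Supplemented ADX against ADX called 0.0311% of all genes (0.0156% in each direction) and no member had an unadjusted p under 0.05. Supplemented ADX against sham called 0.0156% (0.00778% in each direction), with 2 members under 0.05, and DESeq2 called 0 in both. In 1 h acute against supplemented ADX 4 members were under 0.05 and DESeq2 called 1, Klf6, where edgeR called 0.0467% of all genes (0.0389% higher, 0.00778% lower). In 3 h acute against supplemented ADX 2 were under 0.05, with 0.00778% of all genes called. In 3 h against 1 h acute 1 was, with 0.0233% called (0.00778% higher, 0.0156% lower). DESeq2 and limma called 0 members in both of these.

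Separation of the libraries alone was common. Groups did not overlap for 5 of 10 members in high Cort against sham, where 37.8% of all genes did so, and for 7 in high Cort against ADX (53.8%). ADX against sham had 6 such members (47.2%), supplemented ADX against ADX 5 (35.0%) and supplemented ADX against sham 4 (41.5%). In 1 h acute against supplemented ADX all 10 members were separated (46.5%), with Klf6 and Klf7 lower and the other 8 higher. The count was 4 in 3 h acute against supplemented ADX (45.8%), 3 in 3 h against 1 h acute (38.9%), 6 in 1 h acute against sham (56.5%) and 4 in 3 h acute against sham (53.1%).

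**Figure D3:**
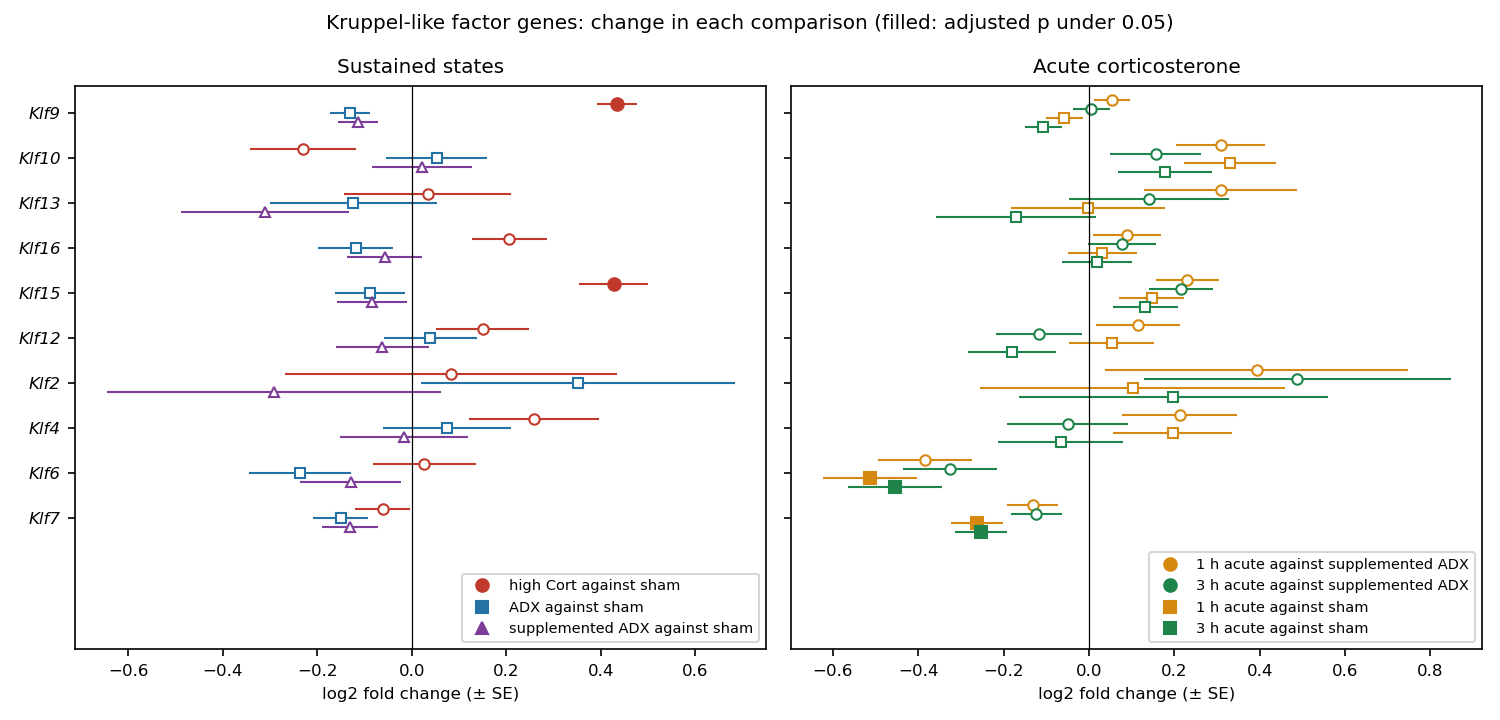
Log2 fold change (horizontal axes, ± SE) of the 10 genes (vertical axis) in 3 comparisons with sham (left) and 4 acute comparisons (right), with filled symbols for an adjusted p under 0.05. On the left only Klf9 (0.44) and Klf15 (0.43) are filled, in high Cort, and on the right only Klf6 and Klf7 against sham.

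The Klf9 and Klf15 changes in high Cort stood among other glucocorticoid-responsive genes. Of 20 genes of the glucocorticoid receptors and receptor-induced list, 7 rose and 0 fell in high Cort against sham (median 0.38, all genes 0.01). The 4 of smallest p were Per1, a repressor of the circadian clock (0.90 ± 0.08), Sgk1, a kinase that controls ion transport (1.35 ± 0.13), Fkbp5, a co-chaperone of the receptor (0.56 ± 0.09), and Hif3a (2.79 ± 0.39). In the 1 h acute group Per1 was the gene of this list called against supplemented ADX, rising from 49.6 ± 1.27 to 84.9 ± 3.47 CPM (0.77 ± 0.08, adjusted p = 0.00174). Klf9, by contrast, held 74.2 ± 0.20 and 77.0 ± 0.43 CPM in those groups. Per1 was back at 50.8 ± 1.43 CPM at 3 h.

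Of 16 tested metabolic genes controlled by Klf15, 4 rose and 0 fell in high Cort against sham (median 0.08). Glul, which encodes glutamine synthetase, rose from 1294.0 ± 81.9 to 1914.6 ± 53.9 CPM (0.57 ± 0.07, adjusted p = 0.00423). The alanine transaminase gene Gpt2 rose by 0.41 ± 0.07 (adjusted p = 0.0109), the proline dehydrogenase gene Prodh by 0.42 ± 0.07 (adjusted p = 0.0155), and Ctgf, a matrix-associated growth factor gene, by 1.40 ± 0.22 (adjusted p = 0.0191). Ctgf is not a metabolic gene, although the list holds it, and it is known as a gene that Klf15 represses. Both Ctgf and Klf15 were higher in high Cort. In ADX against sham Prodh fell by 0.41 on the log2 scale (adjusted p = 0.0451) and no other gene of the list was called. None of the 16 was called in either acute comparison with sham or with supplemented ADX.

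The lists around the other members had these calls. Of 17 endothelial genes controlled by Klf2 and Klf4, Cxcl12 rose in high Cort against sham (0.31 ± 0.05, adjusted p = 0.00968) and 0 fell. In high Cort against ADX 1 was higher, again Cxcl12 (0.50 ± 0.05), and 2 were lower, the adhesion gene Vcam1 (-0.27 ± 0.05) and the nitric oxide synthase gene Nos3 (-0.27 ± 0.08). Of 11 genes of transforming growth factor beta signalling around Klf10, the receptor gene Tgfbr2 fell in high Cort against sham (-0.49 ± 0.10, adjusted p = 0.0268) and 0 rose. Against ADX 2 were lower, Tgfbr2 (-0.46 ± 0.09) and the ligand gene Tgfb2 (-0.27 ± 0.07), and 0 higher. Of 11 thyroid hormone response genes around Klf9, 0 were called in high Cort against sham. In high Cort against ADX, Hr, a corepressor gene, was higher (0.27 ± 0.06, adjusted p = 0.0111). Of 12 corepressors, coactivators and ubiquitin ligases that act with Klf proteins, Ctbp2 was lower in high Cort than in ADX (-0.23 ± 0.06, adjusted p = 0.023). Of 9 genes of the ERK5 and Mef2 path, which acts upstream of Klf2 and Klf4, Mef2d was higher in that contrast (0.28 ± 0.05, adjusted p = 0.00452).

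Among 20 immediate early genes, the class to which Klf4, Klf6 and Klf10 are often assigned, 7 rose and 1 fell in 1 h acute against sham, with a median of 0.36 against 0.00 for all genes, where 12.8% of all genes were called. The nuclear receptor gene Nr4a3 rose from 7.41 ± 2.15 to 24.6 ± 1.96 CPM (1.72 ± 0.21, adjusted p = 0.00345), and Nr4a1 (0.95 ± 0.16), Fosl2 (0.96 ± 0.17) and Junb (0.62 ± 0.13) rose too. None of the 20 was called in 1 h acute against supplemented ADX (median 0.37, 16 of 20 positive). Of 12 other Klf and Sp genes tested, Klf5 (from 6.39 ± 0.22 to 10.1 ± 0.05 CPM, 0.66 ± 0.13) and Sp8 (0.70 ± 0.21) rose in 1 h acute against sham, and Klf3 fell there (-0.33 ± 0.06) and in 3 h acute (-0.32 ± 0.06). In the same comparisons 8 of the 12 thalamus markers fell at 1 h (median -1.08) and 1 at 3 h (median -0.92). With the marker mean as covariate edgeR called 3 of all genes at 1 h, against 1641 without it, and 4 at 3 h, against 1026. Both comparisons also cross the processing runs, and the part of either in these early gene, Klf and Sp calls cannot be told apart from that of the treatment. None of the 12 Klf and Sp genes was called in the comparisons among sham, high Cort, ADX and supplemented ADX.

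The genes nearest to each member were found by the root-mean-square difference between log2 profiles over the 12 libraries, each centred on its own mean, among 10497 genes. For Klf9 they were Arid5b (0.06), Adipor2 (0.08) and Adamts5 (0.08), where Klf9 itself varied with an SD of 0.20. For Klf15, with an SD of 0.18, they were Gpt2 (0.08), Srxn1 (0.08) and Tsc22d3 (0.09), the gene of the glucocorticoid-induced leucine zipper. For Klf6, with an SD of 0.23, they were Kcnip4 (0.05), Elmo1 (0.06) and Slc24a3 (0.06). For Klf4 they were Synm (0.08), Prdx4 (0.10) and Errfi1 (0.10). The profiles share libraries and scaling, and the order is a description.

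**Figure D4:**
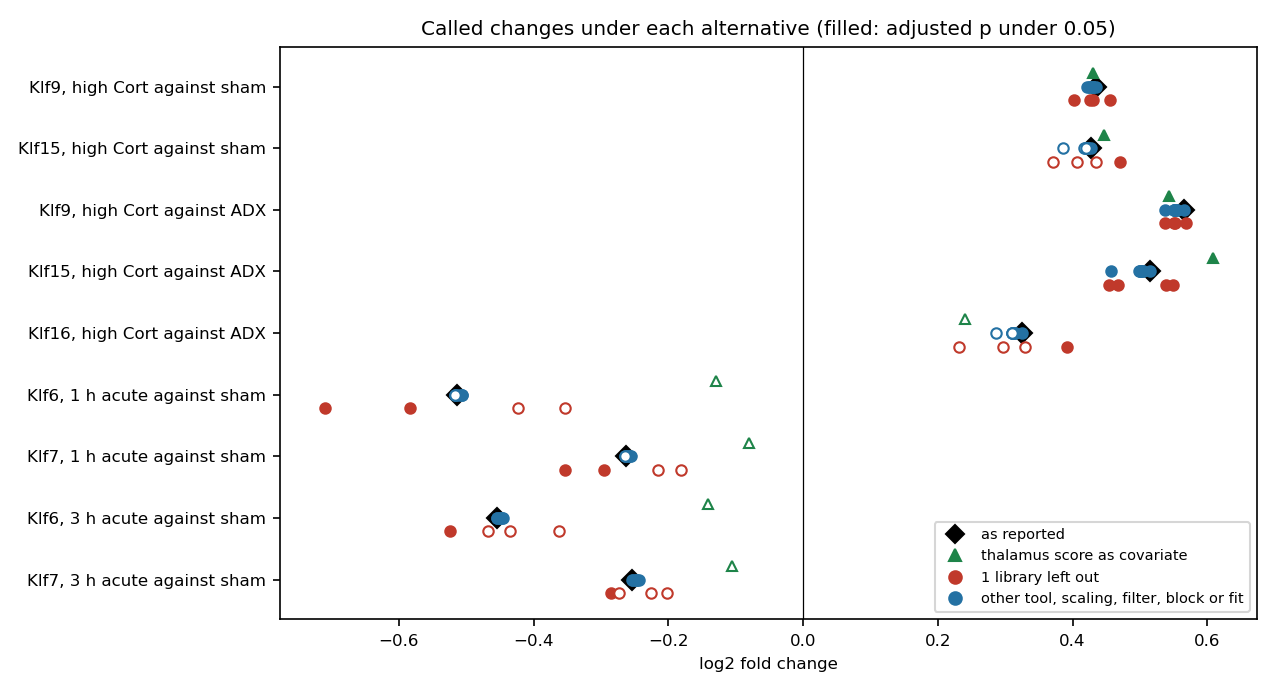
Log2 fold change (horizontal axis) of each member called between 2 groups, by comparison (vertical axis; the tests of acute minus high Cort effects are not drawn), as reported (diamond), with the thalamus score as covariate (triangle), with 1 library left out (red circles) and under the other alternatives (blue circles), filled where the adjusted p was under 0.05. All Klf9 symbols drawn are filled, and the triangles of Klf6 and Klf7 lie nearer 0 than the other symbols of their rows.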

How the data were processed

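The deposited tables are Cuffdiff read group tables of 1 library each. Per the submitters' processing notes, CASAVA 1.8.2, TopHat2 2.1.1, Cufflinks 2.2.1 and build rn6 were used; the sources used here give neither their roles nor the annotation. The deposited raw fragments are expected counts that the authors left unscaled. Of all values 0.751% were not whole and were rounded; none belonged to a member. The deposited FPKM and scaled signal (fragments) were scaled by the authors within 2 runs, per the file headers: run 1 held ADX, sham and high Cort libraries and run 2 supplemented ADX with both acute groups. FPKM served for levels per length and 1 alternative, and the scaled signal was not used. Strand was not stated, so reads of overlapping genes cannot be separated.

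Counts were fitted with edgeR 4.0.16 in R 4.3.3 (TMM, filterByExpr, 1 coefficient per group, robust quasi-likelihood, Benjamini-Hochberg over 12856 genes). Residual degrees of freedom were 6, and exact permutation of 2 against 2 libraries cannot go below p = 0.333. Replicate pairs differed beyond sampling noise (chi-square per degree of freedom 2.98 to 7.84). The members and gene lists were chosen with earlier results of these data known; the rule named all members, up to 4 called genes of smallest p per list and comparison, and the 3 nearest profiles. Genes outside it were not singled out. Some genes that the rule names are not reported here. The script was tested on simulated data. Alternatives were RLE scaling, 2 filters, DESeq2 1.42.0, limma 3.58.1 on log2(FPKM + 1) or log2(FPKM + 0.1), the compared samples alone, a replicate block, a thalamus marker covariate and leaving out each library.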

Additional observations from a re-analysis of the deposited data

Results flagged for a closer look

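The difference of Klf9 between acute corticosterone and supplemented ADX was smaller than that between high Cort and sham, by a test added after these values were seen. The log2 difference, acute effect minus high Cort effect, was -0.38 at 1 h and -0.43 at 3 h. Klf9 rose by 0.44 in high Cort against sham and had 0.05 and 0.01 in the acute groups against supplemented ADX. The call was lost in 7 of 15 alternatives at 1 h and in 3 of 15 at 3 h. The labels name no vehicle group, so corticosterone and its administration cannot be told apart in the acute values. The 2 effects rest on different baselines, each within 1 processing run of the authors.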

How the results depend on the processing

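Of 1520 member values under alternatives, 1473 kept their side of the threshold, 40 lost a call, 7 gained one and no called value changed sign. The number of members called in high Cort against sham was 1 (Klf9) in the fit of the compared samples and on FPKM with either pseudocount, against 2 as reported. In high Cort against ADX it was 2 with the thalamus score, 2 on FPKM and 4 in the fit of the compared samples, against 3. In 1 h acute against sham it was 0 with the thalamus score and 0 in the fit of the compared samples. In 3 h acute against sham it was 0 with the thalamus score, 1 without a filter on low counts and 1 with the replicate block, where Klf6 had an adjusted p of 0.0692. In 1 h acute against supplemented ADX DESeq2 called 1, and in 3 h acute against supplemented ADX the fit of the compared samples called 1. For the 1 h acute effect minus the high Cort effect, the thalamus score and the fit of the compared samples each gave 0.

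Leaving out 1 library gave 1 to 2 members in high Cort against sham, 2 to 3 in high Cort against ADX, 0 to 2 in 1 h acute against supplemented ADX, 0 to 2 in each acute group against sham, and 0 to 2 (1 h) and 0 to 1 (3 h) in the tests of the difference. The lone library is then assumed to vary like the other groups. The replicate block changed no other member count. Replicate numbers did not pair the libraries: deviations from group means correlated at -0.189 to 0.102 over 15 pairs of groups, with 1 above 0.1. Counts of all genes moved by over 1.5 times in several fits: in 1 h acute against sham 1641 genes were called as reported, 3 with the thalamus score and 23 in the fit of the compared samples. FPKM fits were not run across processing runs. Depth limits Klf2 most, with 36 to 94 fragments per library.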
